A study of Mus musculus with 71 samples.

Results

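The 8 genes described here, Tcf7, Lef1, Gata3, Bcl11b, Runx1, Runx3, Tox and Ets1, encode transcription factors that specify the T cell lineage. They were chosen by symbol, and all 8 were found among the 25579 genes listed for mouse pro-B cells and Pax5-deficient progenitors and among the 24420 genes listed for early lymphoid and T cell stages. Their mRNA levels were followed over 11 genotypes of the Pax5 gene, over a separate experiment with an allele that retains the paired domain alone, and over 6 stages from a multipotent progenitor of the bone marrow to the DN3b stage of the thymus.

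In the thymus, Notch signalling switches on Tcf7 in incoming progenitors, whose product TCF-1 then opens T cell genes together with GATA3. Bcl11b is turned on later, when cells commit to the T cell lineage, and Runx and Ets factors act with these regulators at shared enhancers. Pax5 commits progenitors to the B cell lineage by activating B cell genes and by repressing genes of other lineages, and its loss leaves progenitors that can still give rise to T cells. Lef1, Runx1 and Ets1 are also used in B cell development, so the 8 genes are not markers of T cells alone.

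Tcf7 (Entrez identifier 21414) spans, on chromosome 11 of GRCm38, positions 52246527 to 52283383, Lef1 (16842) on chromosome 3 from 131110297 to 131224357, Gata3 (14462) on chromosome 2 from 9857078 to 9887953 and Bcl11b (58208) on chromosome 12 from 107910403 to 108004145. Runx1 (12394) is found on chromosome 16 from 92601466 to 92826074, Runx3 (12399) on chromosome 4 from 135120645 to 135177990, Tox (252838) on the same chromosome from 6686353 to 6991557 and Ets1 (23871) on chromosome 9 from 32636241 to 32757820. These positions are those of the RefSeq annotation of GRCm38.p6. RefSeq start sites with 250 bases of upstream sequence were matched for 6 members, with 12 windows in all, and Tox and Ets1 had no entry.

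Upstream windows are shown for Lef1, the member with the widest range over the Pax5 genotypes, and for Runx3, which is among the members called in Pax5-deficient cells. The windows of Gata3 and Runx1, which overlap no annotated exon and held no match, are not shown. Those shown therefore do not represent all members. Of 4 Lef1 windows, the 2 that overlap annotated exons are left out, and of 2 Runx3 windows, the second, which overlaps no annotated exon and held no match, is left out. The first Lef1 window ends at the annotated 5′ end of the gene and the second lies inside the gene, before an internal start. All 3 windows shown are on the plus strand and overlap no annotated exon. Capitals mark matches to the TCF/LEF string CTTTGA, read on the opposite strand as TCAAAG, or to the RUNX string TGTGGT, read as ACCACA.

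Lef1, chr3:131110047-131110296: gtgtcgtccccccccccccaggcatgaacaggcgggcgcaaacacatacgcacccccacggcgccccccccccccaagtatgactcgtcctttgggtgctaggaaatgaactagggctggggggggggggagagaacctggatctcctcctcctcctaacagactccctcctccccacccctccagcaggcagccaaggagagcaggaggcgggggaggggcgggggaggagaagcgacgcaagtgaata

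Lef1, internal start, chr3:131156044-131156293: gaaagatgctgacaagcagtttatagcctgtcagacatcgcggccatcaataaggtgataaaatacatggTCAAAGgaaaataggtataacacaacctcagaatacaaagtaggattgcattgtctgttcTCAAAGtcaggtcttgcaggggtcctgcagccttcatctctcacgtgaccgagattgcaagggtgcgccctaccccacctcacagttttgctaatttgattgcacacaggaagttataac

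Runx3, chr4:135120395-135120644: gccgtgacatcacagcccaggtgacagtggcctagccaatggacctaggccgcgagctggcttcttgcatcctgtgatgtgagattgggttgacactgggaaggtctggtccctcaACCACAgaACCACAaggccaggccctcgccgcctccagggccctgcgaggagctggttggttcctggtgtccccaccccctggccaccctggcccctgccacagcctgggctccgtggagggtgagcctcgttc

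Both strands were also searched for the PAX5 half-site string GCGTGAC, the GATA string AGATAA and the ETS string CGGAAG, and none of the strings contains another. The internal Lef1 window held 2 TCF/LEF matches, starting 180 and 120 bases before the start site, and the Runx3 window shown held 2 RUNX matches, 134 and 126 bases before it. One Tcf7 window, which overlaps annotated exons and is not shown, held 1 ETS match, and the Bcl11b window 1 TCF/LEF match. No window of the 6 members held the PAX5 string. Among 32851 RefSeq windows of the same length, 13.8% held the TCF/LEF string, 14% the RUNX string, 13.6% the ETS string, 9.99% the GATA string and 1.78% the PAX5 string, so single matches are frequent and describe letters only.

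Poly(A) RNA was sequenced from 48 samples of C57BL/6 mice, and the ATAC-seq and ChIP-seq samples of the series were not analysed here. Pro-B cells of the bone marrow came from 5 Pax5(+/+) samples and from 2 samples each of homozygous deletions of the octapeptide, Pax5(DOP/DOP), of the partial homeodomain, Pax5(DHD/DHD), or of both, Pax5(DOP,HD/DOP,HD). The C-terminal regulatory domains CRD1 and CRD2, which hold the transactivation and inhibitory sequences of Pax5, were deleted singly or together, each as a homozygote with 2 samples, Pax5(DCRD1/DCRD1), Pax5(DCRD2/DCRD2) and Pax5(DCRD1,2/DCRD1,2), and each over a null allele with 2 samples, Pax5(DCRD1/-), Pax5(DCRD2/-) and Pax5(DCRD1,2/-). Pax5-deficient progenitors were 2 samples of Vav-Cre Pax5(fl/fl) mice, in which Cre deletes floxed Pax5 in haematopoietic stem cells and all their progeny. A second experiment held 2 samples each of Vav-Cre Pax5(fl/+) pro-B cells, Vav-Cre Pax5(fl/fl) progenitors and Vav-Cre Pax5(Prd/fl) progenitors, whose only remaining Pax5 allele encodes the DNA-binding paired domain. The wild-type stages were LMPP (lymphoid-primed multipotent progenitors) with 2 samples, DN1, DN2a and DN2b thymocytes with 3 each, DN3a and DN3b thymocytes with 2 each, and 2 samples of Rag2(-/-) DN3a thymocytes, which cannot rearrange antigen receptor genes. The labels number the samples as replicates and name no animals, so p-values measure only the spread between these samples, which may be technical. In DN1, DN2a and DN2b the labels give only 2 replicate numbers for 3 samples, so 2 samples of each stage share a number. Whether these share a source is not given in the sources used here, and each was counted as a sample of its own.

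Pax5-deficient, Pax5(DCRD1,2/-) and Vav-Cre Pax5(Prd/fl) cells were sorted as Ly6D+ Kit-high B220+ cells, with another gate than wild-type, single CRD-deleted and central-domain pro-B cells, and the gate of Pax5(DCRD1,2/DCRD1,2) pro-B cells differed from that of wild type as well. Genotype and sorting gate therefore cannot be told apart for these genotypes. Reads were sequenced at 50 nucleotides for Pax5(+/+) replicates 1, 2 and 5, for Pax5(DCRD1/DCRD1) and for the Pax5-deficient progenitors of the pro-B experiments. All other pro-B and Prd samples were sequenced at 100 nucleotides. Differences from wild type therefore rest on wild-type samples of the same read length. The paper states that reads were cut to 50 bases so that alignments could be compared. Read length here thus names how a sample was sequenced, not the length aligned. It marks sets of samples that may also differ in other ways. The depth, recovered from the TPM values (transcript abundance scaled to gene length and to the sample's total), was 10018678 to 43784791 reads per sample. Gene totals of Pax5 do not separate the deleted part of an allele and check no label. Summed over 8 B lineage markers, levels were 14217 to 18471 TPM in wild-type pro-B cells and 6345 to 6994 TPM in the Pax5-deficient progenitors. Of 6 T lineage markers, Trat1 was at 0 in every wild-type pro-B sample and the sum was 70.0 to 92.2 TPM there, against 429 to 493 TPM in the Pax5-deficient progenitors, where 2 of the 6, Lck and Trat1, had a mean above 1 TPM.

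In wild-type pro-B cells the members fell into 3 bands of TPM, a unit that is corrected for gene length. Lef1 (581 ± 161 TPM, SD, n = 5) and Ets1 (439.9 ± 86.5 TPM) were the highest, and their ranges over samples overlapped. Runx1 (65.7 ± 19.8 TPM), Runx3 (53.2 ± 10.6 TPM) and Tcf7 (43.8 ± 7.47 TPM) followed, again with overlapping ranges. Tox was low at 2.33 ± 0.799 TPM, and Gata3 (0.205 ± 0.150 TPM) and Bcl11b (0.00652 ± 0.0146 TPM) were near 0. Bcl11b had 3 reads in 1 wild-type sample and 0 in the other 4, and it stayed under 1 TPM in every pro-B and progenitor sample, so it did not enter the tests of these cells. In bulk samples of this kind, more cells of a type and more RNA per cell cannot be told apart.

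**Figure D1:**
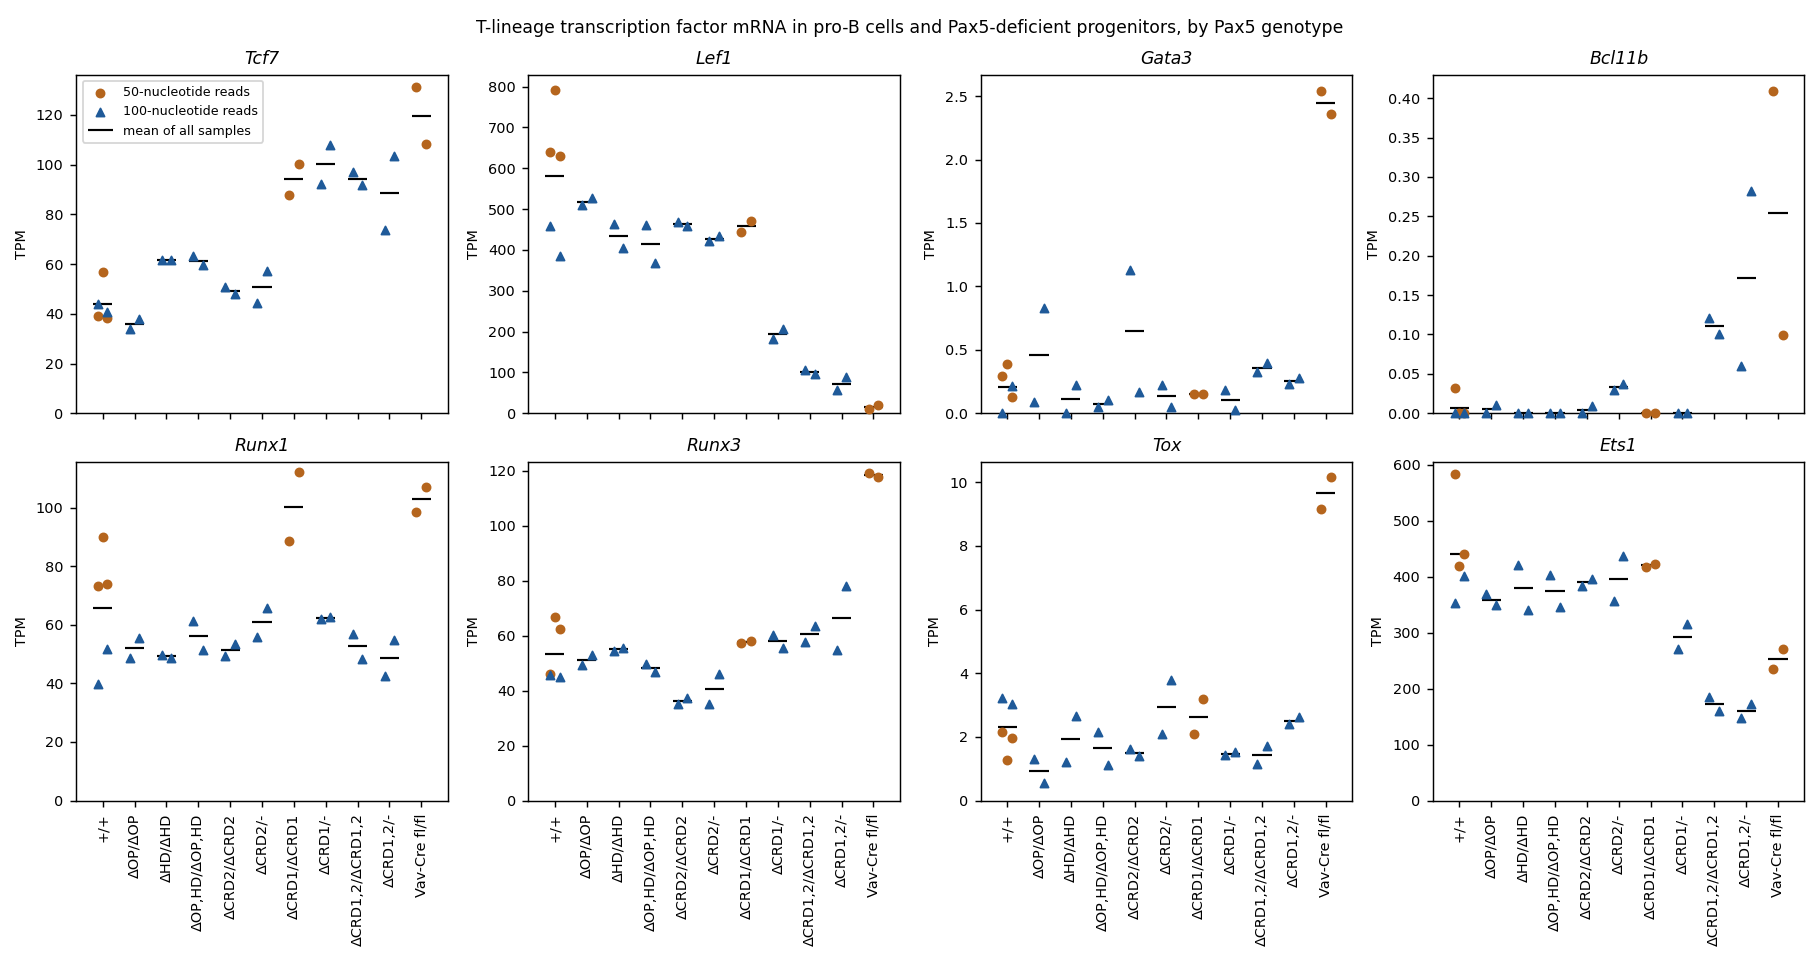
TPM of each of the 8 genes (linear axes from 0) by Pax5 genotype, with 1 point per sample, shape and colour for the read length and a bar for the mean of all samples of a genotype; ∆ stands for D of the genotype names. Lef1 lies between 384 and 790 TPM in the 5 wild-type samples and at 9.64 and 20.3 TPM in the 2 Pax5-deficient samples, while Tcf7 is highest in the latter and Bcl11b stays below 1 TPM throughout.

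The first question was whether the octapeptide and the partial homeodomain of Pax5, which contact repressing and basal transcription partners, influence these genes. No member passed the test in Pax5(DOP/DOP), Pax5(DHD/DHD) or Pax5(DOP,HD/DOP,HD) pro-B cells, where 0.485%, 0.639% and 1.22% of 12996 genes did. Each comparison had 6 members tested, since Gata3 and Bcl11b were too low. Tcf7, the factor that initiates the T cell programme, came nearest to a call. It was 61.5 and 61.5 TPM in Pax5(DHD/DHD) cells and 63.1 and 59.6 TPM in Pax5(DOP,HD/DOP,HD) cells, above all 5 wild-type samples (39.3, 56.6, 43.8, 40.9 and 38.3 TPM), and 33.7 and 38.1 TPM in Pax5(DOP/DOP) cells. The log2 fold change against the 2 wild-type samples of the same read length was 0.54 with an adjusted p of 0.0884 for Pax5(DHD/DHD) and 0.53 with 0.0691 for Pax5(DOP,HD/DOP,HD), from limma with Benjamini-Hochberg adjustment.

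Ets1 had the narrowest intervals around 0, with log2 fold changes of -0.07, 0.00 and -0.01 and a half-width of the 95% interval of 0.30. Tox, at 0.556 to 2.66 TPM in the 6 mutant samples, was -1.75 in Pax5(DOP/DOP) cells with a half-width of 1.31 and an adjusted p of 0.166. The interaction of both deletions passed the test for no member and for 0.00769% of genes. Among 24 related factors (paralogs and partners of the members), 21 were tested, and Ets2, an ETS paralog, rose in Pax5(DHD/DHD) cells (1.09, adjusted p = 0.0205) and in Pax5(DOP,HD/DOP,HD) cells (0.94, adjusted p = 0.0238), where Tcf7l1, a TCF paralog, also rose (1.28, adjusted p = 0.0238) and Aes, a groucho-related corepressor, fell (-0.92, adjusted p = 0.00701). Of 10 T-lineage effector genes tested, Lat, a signalling adaptor, rose in Pax5(DHD/DHD) (0.81, adjusted p = 0.0385) and Pax5(DOP,HD/DOP,HD) cells (0.82, adjusted p = 0.0241).

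The next comparison asked what hemizygous deletion of the C-terminal domains does, beside complete loss of Pax5. With CRD2 deleted, no member passed the test, where 0.513% of 13637 genes did. In Pax5(DCRD1/-) cells 2 of the 7 members tested were called, where 8.51% of all genes were called. In Pax5(DCRD1,2/-) cells 3 were called, where 20.2% of all genes were. The hemizygous cells also carry a null allele and no Pax5(+/-) samples were among the controls, so domain loss and the null allele cannot be told apart here. In Pax5-deficient progenitors 6 of 7 members were called, 4 higher and 2 lower, where 31.7% of all genes were called. Gata3, counted among the 7 and among the 4 higher, passed the 1 TPM filter only through the Pax5-deficient samples. Without the filter Gata3 was called as well (limma, adjusted p = 0.00686). The median log2 fold change of the 7 members was 0.07 for Pax5(DCRD1/-), 0.09 for Pax5(DCRD1,2/-) and 1.04 for the Pax5-deficient progenitors, while the median over all genes was 0.03, -0.04 and 0.01. These comparisons share their wild-type samples.

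Tcf7 rose in all 3 of these genotypes. It was 92.4 and 108 TPM in Pax5(DCRD1/-) cells, 73.7 and 103 TPM in Pax5(DCRD1,2/-) cells and 131 and 108 TPM in Pax5-deficient progenitors, all above the 5 wild-type samples, of which the highest was 56.6 TPM. The mean was 2.36 times that of the wild-type samples with matched read length in Pax5(DCRD1/-) cells (log2 fold change 1.24 with an SE (standard error) of 0.23, adjusted p = 0.00617). The corresponding ratio was 2.09 in Pax5(DCRD1,2/-) cells (log2 fold change 1.04 with an SE of 0.23, adjusted p = 0.00791). It was 2.68 in Pax5-deficient progenitors (log2 fold change 1.43 with an SE of 0.21, adjusted p = 0.000326). In Pax5(DCRD2/-) cells Tcf7 was 44.5 and 57.1 TPM, with a log2 fold change of 0.25 ± 0.50 (half-width of the 95% interval). Without replicate 2 of the respective mutant the adjusted p of Tcf7 was 0.0719 for Pax5(DCRD1/-) and 0.0645 for Pax5(DCRD1,2/-), each with 1 mutant sample remaining, and with the replicate number as a block it was 0.0705 and 0.0552.

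Lef1, which encodes the HMG-box factor most closely related to TCF-1, moved the other way. Wild-type samples had 640.0, 790.3, 459, 384 and 631 TPM in replicates 1 to 5, and those with reads of 50 nucleotides lay at 631 to 790 TPM, above those with 100 nucleotides at 384 and 459 TPM. Pax5(DCRD1/-) cells had 181 and 207 TPM, Pax5(DCRD1,2/-) cells 56.4 and 88.1 TPM and Pax5-deficient progenitors 9.64 and 20.3 TPM. No sample of these 3 genotypes reached the lowest wild-type sample, and the 3 genotypes did not overlap each other.

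Against wild type of the same read length, Lef1 fell 5.83-fold in Pax5(DCRD1,2/-) cells (log2 fold change -2.57 with an SE of 0.30, adjusted p = 0.000177) and 45.8-fold in Pax5-deficient progenitors (log2 fold change -5.60 with an SE of 0.27, adjusted p = 1.6e-07). In Pax5(DCRD1/-) cells it fell 2.17-fold (log2 fold change -1.12 with an SE of 0.30, adjusted p = 0.0434), a call that held in 4 of 13 fits with 1 sample left out and was lost on leaving out any one of the wild-type, Pax5(DCRD1/-) or Pax5(DCRD2/-) samples (adjusted p up to 0.262). The Pax5(DCRD1/-) call held among the samples with 100 nucleotides alone, with an adjusted p of 0.0131, and was lost without the low-value filter (0.0732), without the variance trend (0.0799) and with the replicate number as a block (0.102). Pax5(DCRD2/-) cells had 421 and 433 TPM, within the wild-type samples of the same length, with a log2 fold change of 0.02 ± 0.66.

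Ets1, whose product acts with Runx and Pax factors at lymphoid enhancers, fell with both CRDs deleted and in the absence of Pax5. It was 584, 419, 354, 402 and 441 TPM in the wild-type samples, 148 and 173 TPM in Pax5(DCRD1,2/-) cells and 236 and 270.0 TPM in Pax5-deficient progenitors. All 4 mutant samples lay below every wild-type sample, and the Pax5(DCRD1,2/-) samples were the lower of the 4. The log2 fold change was -1.24 for Pax5(DCRD1,2/-) (SE 0.18, adjusted p = 0.000724) and -0.92 for the Pax5-deficient progenitors (SE 0.17, adjusted p = 0.00152). Pax5(DCRD1/-) cells had 270.0 and 316 TPM, a log2 fold change of -0.37 with an adjusted p of 0.281.

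Compared directly, Pax5(DCRD1,2/-) cells were lower than Pax5(DCRD1/-) cells in Lef1 (log2 fold change -1.46 with an SE of 0.30, adjusted p = 0.0341) and in Ets1 (log2 fold change -0.87 with an SE of 0.18, adjusted p = 0.0346), and 2.17% of all genes were called in this comparison. For Tcf7 the difference was -0.19 ± 0.50. Each of the 2 calls held in 6 of 13 fits with 1 sample left out. Both were lost without either Pax5(DCRD1/-) sample, Pax5(DCRD1,2/-) replicate 1 or wild-type replicate 3, that of Lef1 also without wild-type replicate 1 or either Pax5(DCRD2/-) sample, and that of Ets1 also without the other Pax5(DCRD1,2/-) or either Pax5-deficient sample (adjusted p up to 0.267 and 0.297). Without the low-value filter (0.0622 for Lef1 and 0.0607 for Ets1), the variance trend (0.0674 and 0.0687) or the read length term (0.0796 and 0.0670) neither was called.

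GATA3, a zinc finger factor required from the earliest T cell stage, stayed under 3 TPM in every genotype. Gata3 was 0 to 0.387 TPM in wild-type samples, 0.184 and 0.0228 TPM in Pax5(DCRD1/-), 0.234 and 0.278 TPM in Pax5(DCRD1,2/-) and 2.54 and 2.36 TPM in Pax5-deficient cells. Of these mutants the Pax5-deficient samples alone stood above the wild-type range, with 63 and 29 reads, and the rise passed the test (log2 fold change 2.86 with an SE of 0.68, adjusted p = 0.00819), except with a pseudocount of 0.01 (adjusted p = 0.0833). Bcl11b, the commitment factor, was 0.410 and 0.0989 TPM in Pax5-deficient progenitors, from 25 and 3 reads, and 0.0605 and 0.282 TPM in Pax5(DCRD1,2/-) cells, from 7 and 40 reads. Both Pax5(DCRD1/-) samples had 0 reads, which allows up to 0.0280 and 0.0277 TPM (3 reads), a limit that covers counting error only.

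The RUNX proteins bind DNA with CBFβ and act in T and B cells. Runx3 was 119 and 118 TPM in Pax5-deficient progenitors, above all wild-type samples (45.9, 67.0, 45.6, 45.1 and 62.4 TPM), and it rose (log2 fold change 1.04 with an SE of 0.19, adjusted p = 0.00183). In Pax5(DCRD1,2/-) cells it was 54.9 and 78.2 TPM, a log2 fold change of 0.53 with an adjusted p of 0.107. Runx1 was called in none of the 4 genotypes. Its levels of 98.6 and 107 TPM in Pax5-deficient progenitors compare with 79.0 ± 9.29 TPM (SD, n = 3) in wild-type cells of the same read length and 45.7 ± 8.21 TPM (n = 2) in those with 100 nucleotides, and the log2 fold change was 0.38 ± 0.35 (adjusted p = 0.089).

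TOX, an HMG-box factor of thymocytes and innate lymphoid cells, rose in Pax5-deficient progenitors and was not called in the hemizygous genotypes. Tox was 9.15 and 10.2 TPM there and 2.14, 1.28, 3.22, 3.03 and 1.96 TPM in wild-type samples, without overlap (log2 fold change 2.39 with an SE of 0.31, adjusted p = 0.00017). Pax5(DCRD1,2/-) cells had 2.4 and 2.62 TPM, inside the wild-type range, and Pax5(DCRD1/-) cells 1.43 and 1.52 TPM with a log2 fold change of -1.04 (adjusted p = 0.0937).

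**Figure D2:**
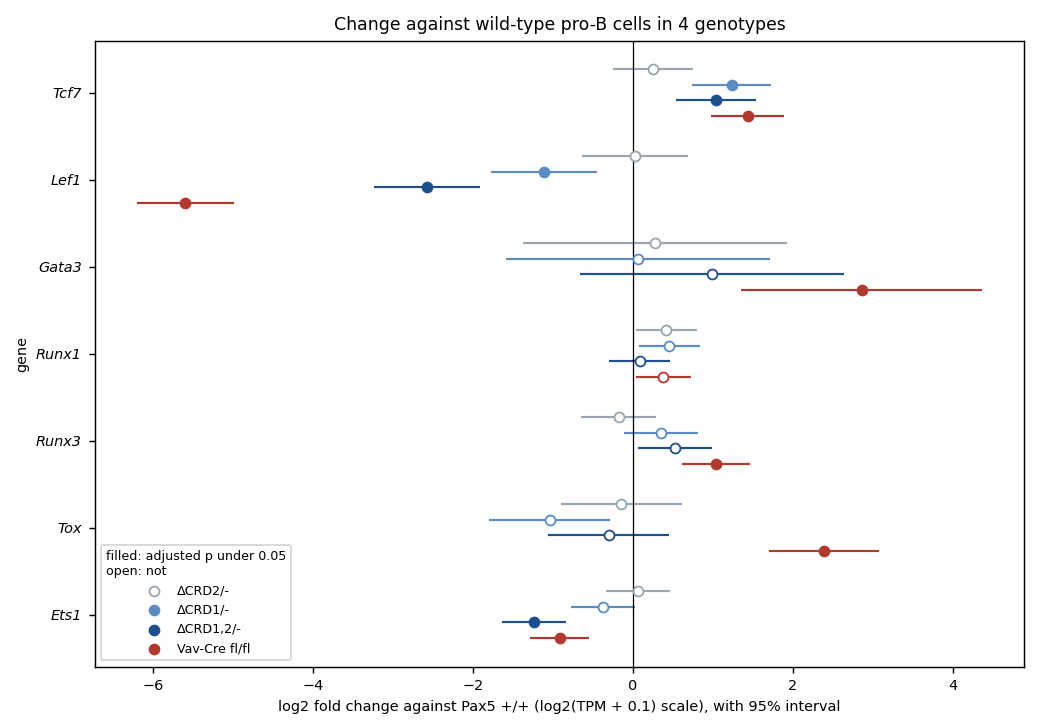
Log2 fold changes of the 7 tested genes against wild-type pro-B cells of the same read length, with 95% intervals, for the hemizygous C-terminal deletions and for Pax5 deficiency (Vav-Cre fl/fl), where filled symbols mark an adjusted p under 0.05. Lef1 reaches -5.60 in Pax5-deficient progenitors, whereas Tcf7 lies between 1.04 and 1.43 in the genotypes in which it was called.

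Marker levels that moved with these changes are given beside them, and their part in the changes was not tested. The 6 multipotent progenitor markers summed to 95.8 to 125 TPM in wild-type pro-B cells, 395 to 454 TPM in Pax5(DCRD1/-), 573 to 660 TPM in Pax5(DCRD1,2/-) and 681 to 821 TPM in Pax5-deficient cells. They include Flt3 and Ly6a, which the paper reports as genes repressed by Pax5, and Kit, which is part of the sorting gates. Here and below, their sum is therefore not a measure of cell stage alone. Cd3e, a gene of the T cell receptor complex, stayed near 0, with means of 0.117 TPM in wild-type and 0.0891 TPM in Pax5-deficient cells. Ptcra, the pre-T cell receptor alpha chain, was likewise low, with 0.0156 and 0.204 TPM in the same order. NK and innate lymphoid markers summed to 20.5 to 41.8 TPM in wild-type and 42.0 to 86.9 TPM in Pax5-deficient samples. Granulocyte and macrophage markers summed to 459 to 5003 TPM in wild-type, 840 to 10953 TPM in Pax5(DCRD2/-) and 377 to 2636 TPM in Pax5-deficient samples. These sums thus differed widely between samples of the same genotype.

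Of 18 T-lineage effector genes, 15 were tested in these cells, and 9 rose and 0 fell in Pax5-deficient progenitors, with a median log2 fold change of 2.25. A gene could pass the 1 TPM filter through mutant samples alone, so these counts and medians depend in part on the filter. Trat1, a T cell receptor-associated adaptor, was at 0 in wild-type cells and had a mean of 116 TPM in Pax5-deficient progenitors. It passed the filter only through mutant samples and could not have been called lower. Cd7, a surface glycoprotein of T and NK cells, rose by 5.47 (adjusted p = 0.00188) and Cd28, a costimulatory receptor, by 3.64 (adjusted p = 0.00156), both on the log2 scale. In Pax5(DCRD1,2/-) cells 6 effector genes rose and 2 fell (median 1.06), led by Il2ra, the IL-2 receptor alpha chain CD25 (4.65, adjusted p = 0.000163), Trat1 (0.898 and 4.30 TPM against 0 in wild type, adjusted p = 0.00411) and Cd247, the CD3 zeta chain (2.12, adjusted p = 0.00222). In Pax5(DCRD1/-) cells 2 rose and 3 fell (median -0.42). Il2ra rose there by 2.86 (adjusted p = 0.00729), while the kinase gene Zap70 fell by 2.83 (adjusted p = 0.000489) and Thy1 by 1.81 (adjusted p = 0.00141). In Pax5(DCRD2/-) cells none passed, and the direct comparison of Pax5(DCRD1,2/-) with Pax5(DCRD1/-) cells had 2 higher and 0 lower. Over all genes 31.7% were called in Pax5-deficient progenitors, 20.2% in Pax5(DCRD1,2/-), 8.51% in Pax5(DCRD1/-) and 0.513% in Pax5(DCRD2/-) cells. In the direct comparison 2.17% were called.

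Of 24 related factors, 22 were tested, and 0 rose and 1 fell in Pax5(DCRD2/-), 3 rose and 2 fell in Pax5(DCRD1/-), 3 rose and 5 fell in Pax5(DCRD1,2/-), and 4 rose and 3 fell in Pax5-deficient cells. Over all genes 0.513%, 8.51%, 20.2% and 31.7% were called in these comparisons, in the same order. Runx2, the third RUNX gene, rose in Pax5(DCRD1,2/-) cells (2.15, adjusted p = 0.00709) and in Pax5-deficient progenitors (4.52, adjusted p = 1.3e-05). The TCF paralog Tcf7l2 fell in both, by 2.13 (adjusted p = 0.000303) and 2.11 (adjusted p = 8.1e-05). Tcf7l1 rose in Pax5(DCRD1/-) cells (2.27, adjusted p = 0.00152), in which the groucho-family genes Tle2 (-2.41, adjusted p = 0.0265) and Aes (-1.62, adjusted p = 8e-05) fell. Gata1, the erythroid GATA factor, fell in Pax5(DCRD1,2/-) cells by 2.44 (adjusted p = 0.0304). The 5 erythroid markers summed to 93.7 to 320 TPM in wild-type and 20.9 to 23.8 TPM in Pax5(DCRD1,2/-) samples. Their part in the fall of Gata1 was not tested. Tox2 rose in Pax5-deficient progenitors by 2.92 (adjusted p = 0.00364).

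Homozygous cells carry 2 copies of the mutated allele and were compared with wild type and with the hemizygous cells of the same allele. No member passed the test in Pax5(DCRD2/DCRD2) cells, where 0.0956% of 13598 genes did. In Pax5(DCRD1/DCRD1) cells Tcf7 and Lef1 were called, where 8.16% of genes were, and in Pax5(DCRD1,2/DCRD1,2) cells 4 of the 7 members, 1 higher and 3 lower, where 24.6% of genes were. The multipotent progenitor markers summed to 121 to 144 TPM in Pax5(DCRD2/DCRD2), 279 to 313 TPM in Pax5(DCRD1/DCRD1) and 599 to 697 TPM in Pax5(DCRD1,2/DCRD1,2) cells, against 95.8 to 125 TPM in wild type, and their part in the changes was not tested. Among 14 effector genes, 2 rose and 0 fell in Pax5(DCRD1/DCRD1) cells, and 3 rose and 2 fell in Pax5(DCRD1,2/DCRD1,2) cells, with Il2ra at 4.76 (adjusted p = 1.2e-05) and Cd5 at -2.32 (adjusted p = 1.9e-05). Among 21 related factors, 3 rose and 3 fell in the former and 3 rose and 4 fell in the latter.

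Tcf7 was 87.9 and 100.2 TPM in Pax5(DCRD1/DCRD1) and 96.9 and 91.7 TPM in Pax5(DCRD1,2/DCRD1,2) cells, and 50.8 and 47.8 TPM in Pax5(DCRD2/DCRD2) cells. The first 4 samples all lay above the wild-type range, and both rises passed the test, with log2 fold changes of 1.09 (SE 0.18, adjusted p = 0.00244) and 1.15 (SE 0.20, adjusted p = 0.00104). They held in each of 17 fits with 1 sample left out. Lef1 was 106 and 96.0 TPM in Pax5(DCRD1,2/DCRD1,2) cells, below every wild-type sample, and fell 4.16-fold (log2 fold change -2.05 with an SE of 0.18, adjusted p = 4.1e-06). In Pax5(DCRD1/DCRD1) cells Lef1 was 445 and 472 TPM, below the wild-type samples of the same read length and inside the range of all 5. Its call there (log2 fold change -0.58 with an SE of 0.16, adjusted p = 0.0471) held in 3 of 17 fits with 1 sample left out, those without wild-type replicate 5 or either Pax5(DCRD1,2/-) sample. It was lost in the other 14, in edgeR and within reads of 50 nucleotides.

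Ets1 was 184 and 159 TPM in Pax5(DCRD1,2/DCRD1,2) cells and fell (log2 fold change -1.14 with an SE of 0.16, adjusted p = 0.000247). In Pax5(DCRD1/DCRD1) cells it was 418 and 423 TPM, inside the wild-type range (-0.18 ± 0.32). Tox was 1.15 and 1.71 TPM in Pax5(DCRD1,2/DCRD1,2) cells and was called lower (log2 fold change -1.10 with an SE of 0.36, adjusted p = 0.0419) against wild-type samples of the same read length at 3.22 and 3.03 TPM, but wild-type samples with 50 nucleotides reached down to 1.28 TPM. That call was lost without wild-type replicate 3 or 4, without either Pax5(DCRD1,2/DCRD1,2) or Pax5(DCRD1/-) sample, and in edgeR (adjusted p up to 0.247), also without the low-value filter (0.0762), with the replicate block (0.111), without the read length term (0.198) and in 1 model of 25 samples (0.0762). Runx1, Runx3 and Gata3 were called in no homozygous genotype. Gata3 was 1.13 and 0.170 TPM in Pax5(DCRD2/DCRD2) cells and 0.831 TPM in 1 Pax5(DOP/DOP) sample, each time high in 1 of 2 samples. Bcl11b had 12 and 10 reads in Pax5(DCRD1,2/DCRD1,2) cells, 0 in Pax5(DCRD1/DCRD1) cells and 0 and 1 in Pax5(DCRD2/DCRD2) cells.

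No difference by gene dose was called. Hemizygous against homozygous cells passed the test for no member with CRD2 deleted, with CRD1 deleted or with both deleted, where 0.272%, 0% and 0.228% of genes did. For CRD1 the 0 calls of limma stood beside 19 calls by edgeR. Of 13598 genes, 819 had an unadjusted p under 0.05, a count to which genes without any difference contribute. The difference in Lef1 was -0.52 ± 0.39 with both domains deleted (56.4 and 88.1 TPM in hemizygous cells) and -0.54 ± 0.52 with CRD1 deleted, in each case lower in the hemizygous cells without passing the test. For Tcf7 the differences were -0.11 ± 0.43 and 0.15 ± 0.59, and for Ets1 -0.10 ± 0.35 and -0.19 ± 0.48. Pax5(DCRD1/-) and Pax5(DCRD1/DCRD1) samples differ in read length, so that comparison passes through the wild-type samples and has wider intervals. The interaction of CRD2 loss on the CRD1-deleted background with gene dose passed for no member and for 0.0294% of genes.

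The Prd experiment asked whether the paired domain alone can regulate genes. Against Vav-Cre Pax5(fl/+) pro-B cells, 6 of 7 members were called in Vav-Cre Pax5(fl/fl) progenitors, 4 higher and 2 lower, where 39.9% of 12941 genes were called. In Vav-Cre Pax5(Prd/fl) progenitors 4 were again higher and 2 lower, where 40.7% of genes were called. Gata3, counted among the higher members in both, passed the 1 TPM filter only through progenitor samples. Without the filter Gata3 was called as well (limma, adjusted p = 0.0225 for fl/fl and 0.0378 for Prd/fl). Both comparisons share the fl/+ samples and, as above, a difference in sorting gate. The median log2 fold change of the members was 0.56 and 0.53, beside 0.00 and 0.08 over all genes.

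Tcf7 was 40.1 and 42.6 TPM in fl/+ pro-B cells, 84.1 and 119 TPM in Prd/fl progenitors and 97.0 and 116 TPM in fl/fl progenitors. The 2 progenitor groups overlapped and both lay above fl/+ (log2 fold changes 1.27 and 1.36, adjusted p = 0.00183 and 0.00146). Lef1 was 561 and 557 TPM in fl/+, 59.4 and 51.1 TPM in Prd/fl and 15.6 and 36.4 TPM in fl/fl cells, in 3 groups without overlap. It fell 10.1-fold in Prd/fl (log2 fold change -3.34 with an SE of 0.35, adjusted p = 0.000672) and 21.5-fold in fl/fl progenitors (log2 fold change -4.55 with an SE of 0.35, adjusted p = 0.000216). Ets1 fell from 414 and 377 TPM to 194 and 199 TPM in Prd/fl and 163 and 180.0 TPM in fl/fl progenitors, with log2 fold changes of -1.01 and -1.21 (adjusted p = 0.000299 and 0.000155).

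Tox was 2.51 and 1.94 TPM in fl/+, 5.24 and 6.93 TPM in Prd/fl and 6.41 and 6.25 TPM in fl/fl cells and rose in both progenitor groups (1.41 and 1.48, adjusted p = 0.00323 and 0.00271). Runx3 rose from 59.8 and 66.6 TPM to 84.4 and 97.8 TPM and 90.4 and 95.8 TPM (0.53 and 0.56, adjusted p = 0.00829 and 0.00664). Runx1 passed in neither, at 0.34 ± 0.27 in Prd/fl and 0.11 ± 0.27 in fl/fl progenitors. Gata3 was 0.276 and 0.479 TPM in fl/+, 1.28 and 0.977 TPM in Prd/fl and 1.42 and 1.30 TPM in fl/fl cells. Its rises (1.38 and 1.65, adjusted p = 0.0309 and 0.0169) were lost on leaving out fl/+ replicate 1 or either fl/fl sample, and in Prd/fl also without Prd/fl replicate 1 (adjusted p up to 0.135 and 0.0897). Leaving out fl/+ replicate 1 also ended both Runx3 calls, and leaving out fl/fl replicate 2 that of fl/fl (adjusted p up to 0.0797). Bcl11b had 1 and 3 reads in fl/+, 27 and 43 in Prd/fl and 24 and 22 in fl/fl cells, which is 0.153 to 0.310 TPM in the progenitors.

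Between Prd/fl and fl/fl progenitors no member passed the test, where 1.97% of genes did. Lef1 had the largest difference, 1.21 ± 0.84 higher in Prd/fl on the log2 scale (adjusted p = 0.148). The intervals were narrower for Ets1 (0.20 ± 0.21), Runx3 (-0.03 ± 0.25), Tcf7 (-0.09 ± 0.41) and Tox (-0.07 ± 0.53). Against fl/+ pro-B cells, 40.7% of all genes were called in Prd/fl and 39.9% in fl/fl progenitors. Of 12 effector genes tested, 7 rose and 2 fell in Prd/fl and 8 rose and 1 fell in fl/fl progenitors. Il2ra rose by 5.07 and 3.95 (adjusted p = 0.000178 and 0.000493) and Cd7 by 4.75 and 4.75 (adjusted p = 4.3e-05 and 4.3e-05). Of 20 related factors, 6 rose and 6 fell in Prd/fl and 2 rose and 8 fell in fl/fl progenitors, and Runx2 rose in both (2.98 and 3.15, adjusted p = 7.8e-05 and 6.9e-05). The T lineage markers summed to 112 to 121 TPM in fl/+, 297 to 383 TPM in Prd/fl and 411 to 435 TPM in fl/fl cells. Multipotent progenitor markers summed to 83.3 to 96.8 TPM in fl/+, 586 to 638 TPM in Prd/fl and 568 to 579 TPM in fl/fl cells, and B lineage markers to 14718 to 14919, 7895 to 8169 and 6451 to 6935 TPM. The part of these marker levels in the changes was not tested.

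**Figure D3:**
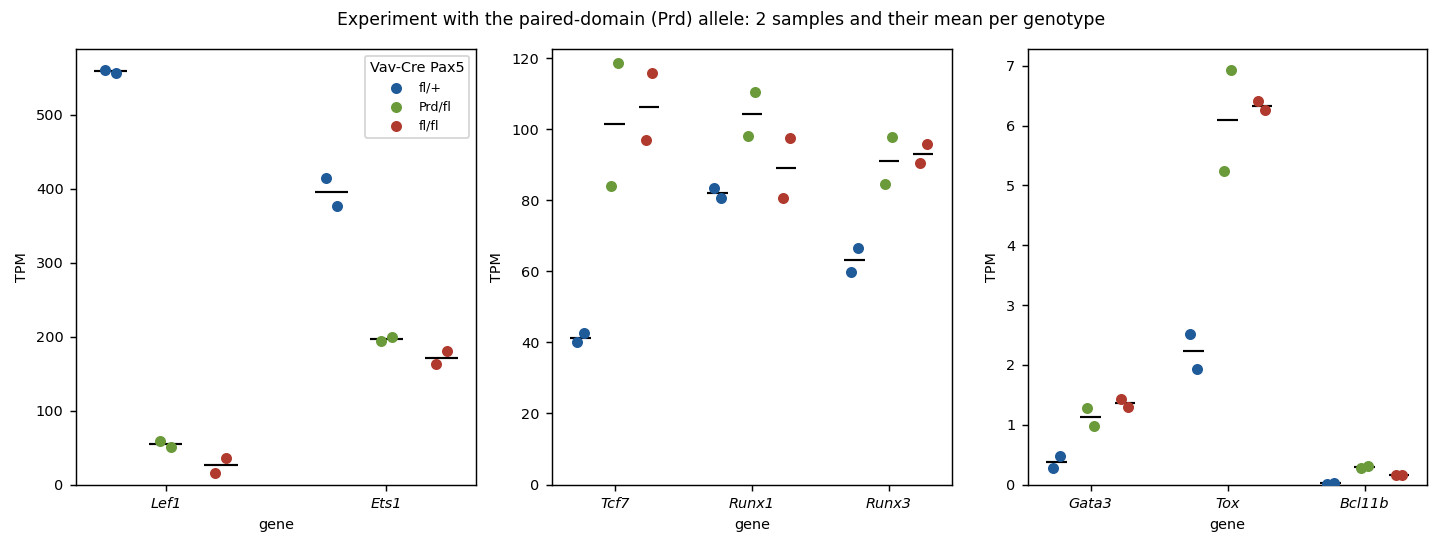
TPM of the 8 genes in the Prd experiment (linear axes from 0, in 3 panels by level), with 1 point per sample and a bar for the mean of 2 samples, for Vav-Cre Pax5(fl/+) pro-B cells and for Vav-Cre Pax5(Prd/fl) and Vav-Cre Pax5(fl/fl) progenitors. Both progenitor groups lie on the same side of the fl/+ samples for Tcf7, Lef1, Gata3, Runx3, Tox and Ets1. Lef1 was 51.1 and 59.4 TPM in Prd/fl and 15.6 and 36.4 TPM in fl/fl, a difference that did not pass the test (limma, adjusted p = 0.148).

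The stages of the T cell lineage show the levels that these genes reach where they act. TPM of these samples were made in a separate alignment and normalization, so levels are set beside the pro-B values without a test. From LMPP to DN3b, Tcf7 rose 689-fold in mean TPM, and Lef1 went from 0.0433 and 0.131 TPM to 478 and 501 TPM. Bcl11b rose 1312-fold from LMPP to its peak in DN3a, Ets1 17.4-fold to DN3a and Gata3 21.3-fold to DN2b. Runx3 and Tox peaked in DN1, and Runx3 was lowest in DN3b.

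All 8 members rose from LMPP to DN1, the earliest thymic progenitor, where 18.6% of 13482 genes were called. Tcf7 went from 4.73 and 7.51 TPM to 1155, 931 and 1022 TPM (log2 fold change 7.41 with an SE of 0.24, adjusted p = 3.1e-10), the largest change of the 8. Gata3 went from 8.47 and 10.6 TPM to 89.7, 72.6 and 71.4 TPM (log2 fold change 3.02 with an SE of 0.24, adjusted p = 7.9e-07) and Tox from 25.1 and 27.7 TPM to 154, 140.4 and 165 TPM (log2 fold change 2.53 with an SE of 0.17, adjusted p = 1.5e-07). Lef1 (0.0433 and 0.131 TPM to 5.14, 5.31 and 5.27 TPM) and Bcl11b (0.355 and 0.383 TPM to 3.44, 2.23 and 3.37 TPM) rose but stayed low. Ets1 rose by 1.14 (adjusted p = 0.00158). The rises of Runx1 (0.68, adjusted p = 0.0391) and Runx3 (0.87, adjusted p = 0.0452) held in 6 and 5 of 17 fits with 1 sample left out, and were lost without LMPP replicate 1 or any one of the DN1, DN3a, DN3b and Rag2(-/-) samples, also without 1 DN2a sample and, for Runx3, 1 DN2b sample, with adjusted p up to 0.385 and 0.424. Both calls were also lost without the low-value filter (0.0503 and 0.0603), without the variance trend (0.0579 and 0.0650), with the replicate number as a block (0.0557 and 0.0583) and with same-numbered samples averaged (0.0531 and 0.0654), which left 6 members called. That of Runx3 was lost with a pseudocount of 0.01 (0.0512) and with the lower of the 2 rows per gene (0.0502).

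From DN1 to DN2a, when CD25 appears on the surface, 5 members were called, 2 higher and 3 lower, where 33.7% of genes were called. Bcl11b rose 32.2-fold, from 3.44, 2.23 and 3.37 TPM to 96.8, 54.8 and 139 TPM (log2 fold change 4.89 with an SE of 0.28, adjusted p = 5.6e-08). Lef1 fell to 1.54, 0.995 and 1.33 TPM (log2 fold change -1.96 with an SE of 0.20, adjusted p = 7.5e-06), below all DN1 samples and the only fall of Lef1 along the path. Runx3 fell from 323, 280.1 and 271 TPM to 147, 105 and 219 TPM (log2 fold change -0.95 with an SE of 0.25, adjusted p = 0.0115), a call lost without the DN2a sample at 105 TPM (adjusted p = 0.0584), and Tox to 65.9, 65.6 and 89.3 TPM (log2 fold change -1.07 with an SE of 0.15, adjusted p = 0.00017). Tcf7 was called higher by 0.62 (adjusted p = 0.0377), which held in 7 of 17 fits with 1 sample left out and was lost without any DN1, DN3a or Rag2(-/-) sample, DN3b replicate 1, DN2a replicate 2 or the DN2a sample at 96.8 TPM of Bcl11b (adjusted p up to 0.112). In Tcf7, Gata3, Runx1 and Ets1 the DN2a samples overlapped with DN1, and 1 of them was the lowest and another the highest in all 4 of these genes and in Bcl11b. With same-numbered samples averaged, 3 members were called in this step, and the calls of Tcf7 (adjusted p = 0.0791) and Runx3 (0.0805) were lost. That of Tcf7 was also lost without the low-value filter (0.0598) or the variance trend (0.0541).

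From DN2a to DN2b, the step at which cells commit, 5 members rose and 0 fell, where 18.2% of genes were called. Lef1 was 14.1, 9.26 and 12.7 TPM in DN2b, above all DN2a samples (log2 fold change 3.12 with an SE of 0.20, adjusted p = 1.9e-07). Bcl11b was 439, 292 and 267 TPM (log2 fold change 1.84 with an SE of 0.28, adjusted p = 0.000318) and Ets1 went from 71.8, 55.1 and 96.2 TPM to 297, 200.3 and 233 TPM (log2 fold change 1.73 with an SE of 0.19, adjusted p = 2.3e-05). Gata3 rose by 1.00 (adjusted p = 0.0049) to 254, 175 and 179 TPM, and Runx1 by 0.71 (adjusted p = 0.018). Tcf7 (0.59 ± 0.45), Runx3 (0.19 ± 0.54) and Tox (-0.05 ± 0.33) did not pass. The Runx1 call was lost without either of 2 DN2a samples or without DN2b replicate 1 (adjusted p up to 0.0842), and with same-numbered samples averaged (0.0855).

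From DN2b to DN3a, where the pre-T cell receptor is assembled, Lef1, Ets1, Runx1 and Tox rose and Runx3 fell, where 45.8% of genes were called. Lef1 rose 19.2-fold to 244 and 217 TPM (log2 fold change 4.27 with an SE of 0.22, adjusted p = 1.6e-08). Ets1 rose to 459 and 481 TPM (log2 fold change 0.97 with an SE of 0.21, adjusted p = 0.00251) and Runx1 to 269 and 250.4 TPM (log2 fold change 0.77 with an SE of 0.21, adjusted p = 0.0101). Runx3 fell to 109 and 84.5 TPM (log2 fold change -0.83 with an SE of 0.28, adjusted p = 0.0274). Without DN3a replicate 1 the calls of Runx1, Runx3 and Tox were lost, and without DN3a replicate 2 those of Runx3 and Tox, with 2 and 3 members called. That of Runx3 was also lost without DN2b replicate 1 and that of Tox without either of the other DN2b samples (adjusted p up to 0.206). Tox (0.48) also lost its call when samples were scaled to a common median, with 0.17 (adjusted p = 0.375), and with same-numbered samples averaged (0.0868).

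From DN3a to DN3b, the stage after selection for a productive receptor, Lef1 rose to 478 and 501 TPM (log2 fold change 1.09 with an SE of 0.24, adjusted p = 0.00183), while Runx1 fell to 108 and 94.8 TPM (log2 fold change -1.36 with an SE of 0.23, adjusted p = 0.000258), Runx3 to 51.1 and 38.0 TPM (log2 fold change -1.12 with an SE of 0.31, adjusted p = 0.00743) and Bcl11b to 242 and 235 TPM (log2 fold change -1.02 with an SE of 0.34, adjusted p = 0.021). Over all genes 53.4% were called and the median log2 fold change was -0.41, the largest shift of any comparison. With samples scaled to a common median, which moved that median by 0.50, the fall of Bcl11b was no longer called (-0.52, adjusted p = 0.115) and Tcf7 (0.90, adjusted p = 0.0022) and Gata3 (0.51, adjusted p = 0.0385) were called higher. Ets1 and Tox, at -0.34 and -0.28, turned to 0.15 and 0.22 under that scaling and passed the test under neither. The falls of Runx1 (-0.86, adjusted p = 0.000486) and Runx3 (-0.63, adjusted p = 0.0390) kept their direction and call. Without DN3a replicate 1 or DN3b replicate 2 the calls of Bcl11b and Runx3 were lost and 2 members were called. That of Bcl11b was also lost without the other DN3a or DN3b sample (adjusted p up to 0.105).

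**Figure D4:**
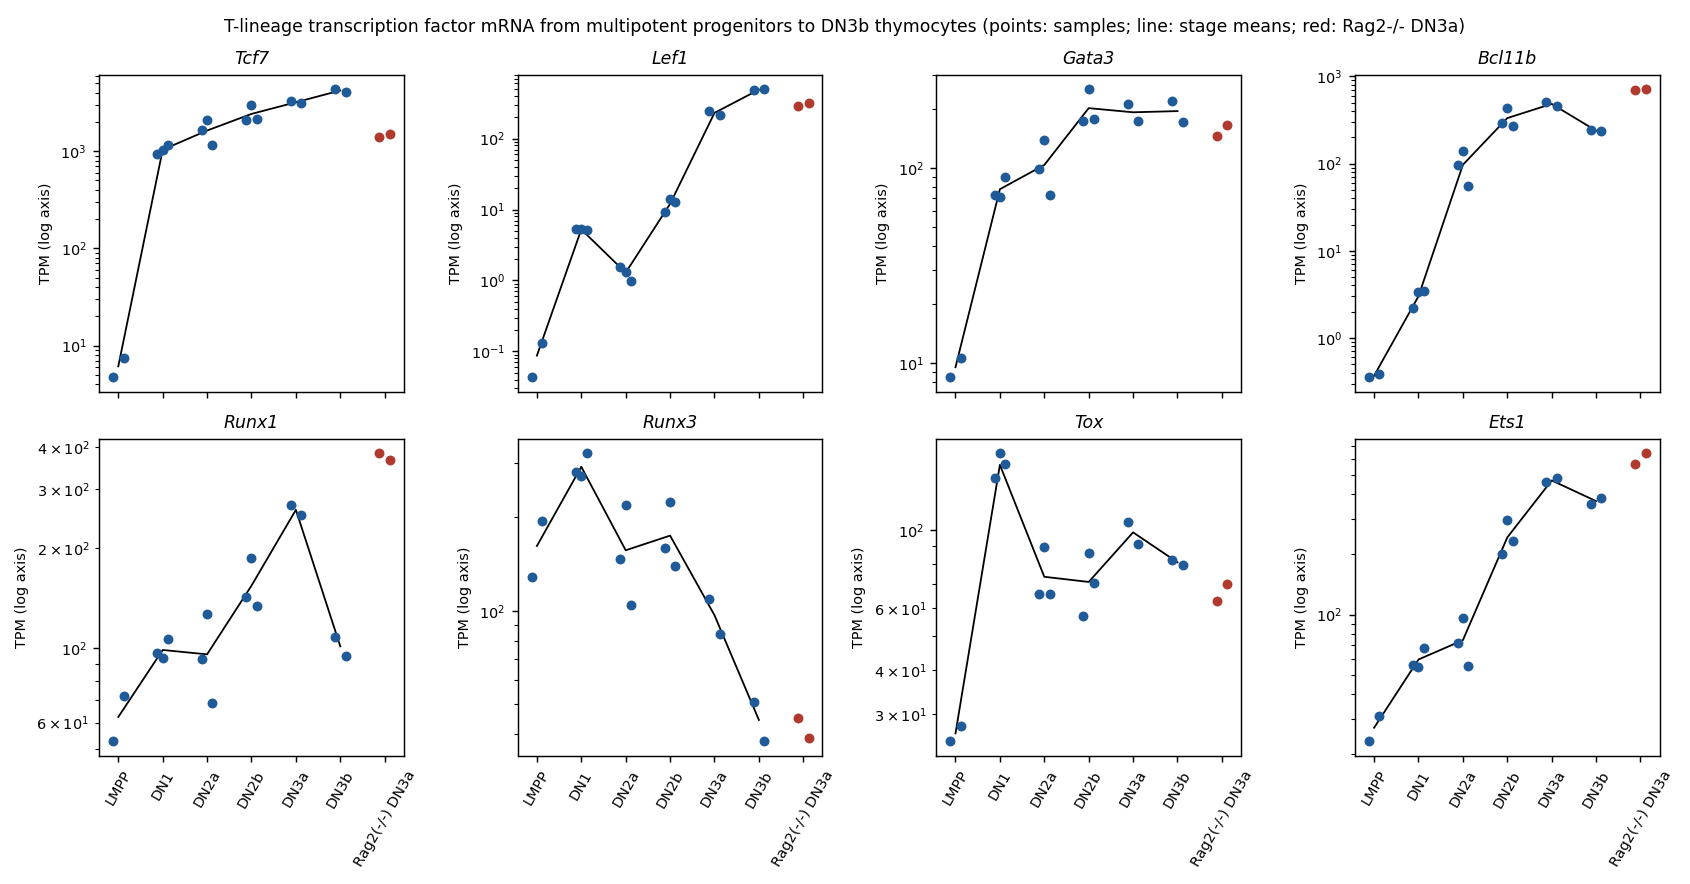
TPM of the 8 genes from LMPP to DN3b and in Rag2(-/-) DN3a thymocytes (log scale), with 1 point per sample and lines through the stage means. Tcf7 is high from DN1 on, Bcl11b climbs from DN1 (3.01 TPM) to DN3a (484 TPM), Lef1 climbs last, and Runx3 falls from 291 TPM in DN1 to 44.5 TPM in DN3b.

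The scaling to a common median moved the median over all genes by 0.09, 0.21, -0.10, -0.31 and 0.50 for the 5 steps and by 0.26 for the Rag2 comparison. From DN1 to DN2a it added calls of Gata3 (0.58, adjusted p = 0.0129) and Ets1 (0.50, adjusted p = 0.0138). The other effector genes followed the path of the members in part. Of 14 tested, 12 rose and 0 fell into DN1, 4 rose and 4 fell into DN2a, 9 rose and 1 fell into DN2b, 11 rose and 2 fell into DN3a, and 3 rose and 9 fell into DN3b. Over all genes 18.6%, 33.7%, 18.2%, 45.8% and 53.4% were called in these 5 steps. The CD3 genes led the rise into DN2b, with log2 fold changes of 5.57 for Cd3g and 5.34 for Cd3e, and Ptcra the rise into DN3a (6.72, adjusted p = 3.2e-06). Of 18 related factors tested, 3 rose and 3 fell into DN1, 1 rose and 11 fell into DN2a, 5 rose and 2 fell into DN2b, 4 rose and 4 fell into DN3a, and 3 rose and 11 fell into DN3b, where the ETS gene Erg fell by 5.90 (adjusted p = 4.9e-09).

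In Rag2(-/-) DN3a thymocytes, which lack a rearranged receptor, Tcf7, Runx3 and Tox were lower than in wild-type DN3a thymocytes, where 26.4% of genes were called. Tcf7 was 1407 and 1494 TPM against 3269.9 and 3113 TPM (log2 fold change -1.14 with an SE of 0.26, adjusted p = 0.00611). Runx3 was 45.1 and 39.0 TPM against 109 and 84.5 TPM (log2 fold change -1.19 with an SE of 0.31, adjusted p = 0.0125), and Tox 62.6 and 70.4 TPM against 105 and 91.4 TPM (log2 fold change -0.56 with an SE of 0.19, adjusted p = 0.04). None of these groups overlapped. Scaled to a common median, Tox was not called (-0.30, adjusted p = 0.170), and Bcl11b (0.82, adjusted p = 0.0340), Runx1 (0.79, adjusted p = 0.0028) and Ets1 (0.63, adjusted p = 0.0145) were called higher, while Tcf7 (-0.88) and Runx3 (-0.93) kept their calls. Without DN3a replicate 1, or without Rag2(-/-) replicate 2, only Tcf7 was called, and the call of Tox held in 10 of 17 fits with 1 sample left out and was lost without the low-value filter (0.0520), without the variance trend (0.0556), with the replicate block (0.0536) and with the lower of the 2 rows per gene (0.0529). Of 14 effector genes, 0 rose and 4 fell, and of 18 related factors, 2 rose and 3 fell.

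Set beside the thymic stages, the Pax5-deficient progenitors had Tcf7 at 119.7 ± 16.4 TPM (SD, n = 2), between LMPP (6.12 ± 1.96 TPM) and DN1 (1036 ± 113 TPM, n = 3). Gata3 at 2.45 ± 0.132 TPM and Tox at 9.66 ± 0.720 TPM were below their LMPP levels of 9.53 ± 1.49 and 26.4 ± 1.88 TPM. Bcl11b at 0.254 ± 0.220 TPM was near its LMPP level of 0.369 ± 0.0192 TPM and far below DN2a (97.0 ± 42.2 TPM). Wild-type pro-B cells had Lef1 at 581 ± 161 TPM (n = 5) and Ets1 at 439.9 ± 86.5 TPM, of the order of DN3b (489.6 ± 16.8 TPM) and DN3a (470.0 ± 15.5 TPM). The unit is the same but alignment, annotation and normalization differed between the tables, so these pairs are given side by side only.

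**Figure D5:**
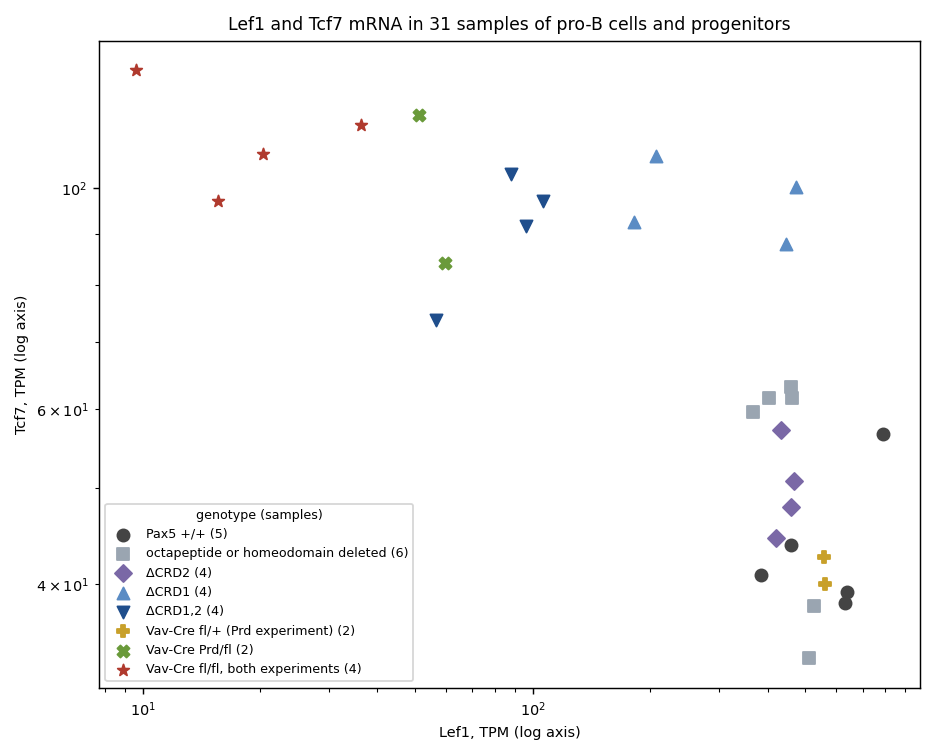
Tcf7 TPM against Lef1 TPM (log axes) in each of the 31 pro-B and progenitor samples, with a symbol per kind of allele, homozygous and hemizygous samples together. Over the 11 genotypes of the pro-B experiments the means of Lef1 span 38.8-fold and those of Tcf7 3.34-fold, and the samples without CRD1, with the paired domain alone or without Pax5 lie at 73.7 TPM of Tcf7 or above, whether Lef1 is at 472 or at 9.64 TPM.

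Over the 11 genotype means of the pro-B experiments, the pattern of Lef1 was opposite to that of Tcf7 (Pearson r = -0.76 of log2 TPM) and like that of Ets1 (r = 0.75). The opposition was not particular to Tcf7, with r = -0.93 for the near-absent Bcl11b, -0.87 for Runx3, -0.67 for Tox, -0.67 for Gata3 and -0.35 for Runx1. These values describe 11 points that share wild-type controls, sorting gates and read lengths, and carry no test. Among the 10934 or 10935 other genes above 5 TPM in at least 1 genotype, the patterns most like Tcf7 were Ston1 (r = 0.99) and Cdk6 (0.98). Those most like Lef1 were Asb2 (0.99) and Pcp4l1 (0.99), those most like Ets1 were Zfp664 (0.99) and Nck2 (0.98), and those most like Runx3 were Lrfn1 (0.98) and Fads6 (0.96). For Runx1 they were Foxj2 (0.95) and Ercc6 (0.95), and for Tox Nrgn (0.95) and Hs3st1 (0.94). For the near-absent Gata3 they were Jaml (0.94) and Slc25a47 (0.94), and for Bcl11b Mrgpra1 (0.98) and 9030619P08Rik (0.96).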

How the data were processed

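Poly(A) RNA-seq of 48 mouse samples was used. For 31 pro-B and progenitor samples the authors deposited TPM per RefSeq gene (STAR 2.4.2a, GRCm38), for 2 of them with deposited raw counts, and 8 of these samples carried no gene names and were read in the row order of the 23 that did (zeros matched in 25579 of 25579 rows). For 17 lymphoid samples the deposited values, a score here, were TPM from TopHat 1.4.1 on mm9 in 2 rows per gene whose difference is not given in the sources used here. Their mean was used and entries of exactly 1 were read as 0.

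Differences were tested on log2(TPM + 0.1) with limma 3.58.1 in R 4.3.3 (two-sided, variance trend, Benjamini-Hochberg adjustment over all genes above 1 TPM in at least 1 sample), in 5 models. The pro-B models with samples of both read lengths had the sequenced read length as a term, although the paper states that reads were cut to a common length. A gene low in one group could enter the tests through another group alone, so counts of rises and falls within lists depend in part on this filter. A call is an adjusted p under 0.05. A fold change on this scale understates the change of low genes. TPM came out as whole reads for 100% of values in the 31 samples and gave their depth, and edgeR 4.0.16 on these reads was an alternative. Depth of the lymphoid samples is unknown. Other alternatives were pseudocounts of 1 and 0.01, no filter, no trend, median scaling, replicate number as a block, no read length term, 1 model of 25 samples, single rows, each sample left out and, chosen after seeing the data, same-numbered samples of a thymic stage averaged, since DN1, DN2a and DN2b have 2 replicate numbers for 3 samples each. Same-numbered samples were not found to deviate together across groups. The scripts were tested on simulated data.

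All 8 members were described in every comparison, at most 3 called genes of the largest change from each of 2 further lists (24 related factors, 18 effector genes), and for each member the 2 genes of the most similar pattern. Members and lists were chosen with earlier results of these data known. ATAC-seq and ChIP-seq were not analysed here.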

Additional observations from a re-analysis of the deposited data

Results flagged for a closer look

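Bcl11b in wild-type pro-B cells had 1 sample apart from the others, with 3 reads (0.0326 TPM) in replicate 1 and 0 reads in the other 4. The gap to the nearest sample divided by the range of the group was 1, against a critical value of 0.71 for 5 samples. With the other 4 samples at 0, this ratio is 1 whatever the value of the remaining sample.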

How the results depend on the processing

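Of 61 calls of members, 37 held under every alternative run, and none of 1427 recomputed called fold changes changed sign. For Pax5(DCRD1/-) against wild type, with 2 members called, 1 was called without the low-value filter or the variance trend, 0 with the replicate block, and 0 to 2 with 1 sample left out. For Pax5(DCRD1,2/-) against Pax5(DCRD1/-), with 2 called, 0 were called without the filter, the trend or the read length term, 1 with median scaling or the replicate block, and 0 to 2 with 1 sample left out. For Pax5(DCRD1/DCRD1), with 2 called, 1 was called with a pseudocount of 0.01, without the filter, trend or read length term, with median scaling, in 1 model of 25 samples, in edgeR, and among reads of 50 nucleotides alone, an alternative chosen after seeing the data, and 1 to 2 with 1 sample left out. For Rag2(-/-) DN3a, with 3 called, 5 were called with median scaling and 1 to 4 with 1 sample left out. Left-out fits gave 2 to 6 calls for DN3a against DN2b, with 5 called, and 2 to 4 for DN3b against DN3a, with 4 called. With same-numbered samples of a thymic stage averaged, an alternative chosen after seeing the data, 3 members were called for DN2a against DN1, with 5 called, and 2324 genes in all instead of 4549. For DN2b against DN2a it called 1602 genes instead of 2458. The cause of these differences was not tested. Without the filter, Bcl11b entered the tests and was called higher in Pax5-deficient progenitors (adjusted p = 0.0258), Pax5(DCRD1,2/DCRD1,2) (0.0346), Vav-Cre Pax5(fl/fl) (0.0168) and Vav-Cre Pax5(Prd/fl) cells (0.00436), each by limma.

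The replicate block ended the calls of Tcf7 (adjusted p = 0.0705) and Lef1 (0.102) in Pax5(DCRD1/-), of Tcf7 in Pax5(DCRD1,2/-) (0.0552), of Ets1 between these genotypes (0.0990), of Gata3 in Prd/fl (0.0538), of Tox in Pax5(DCRD1,2/DCRD1,2) and Rag2(-/-) and of Runx1 and Runx3 in DN1. Same-numbered samples did not deviate together, with correlations of -0.279 to 0.168 in the hemizygous model, -0.157 to 0.156 in the homozygous, -0.111 to 0.0401 in the Prd and -0.276 to 0.142 in the lymphoid model. For the octapeptide and homeodomain deletions no replicate block was run, because wild-type replicates 3 and 4 share no number with the mutants.

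Most genotypes had 2 samples, and a fit without 1 of them assumes that the other varies like the remaining groups. The number of calls over all genes moved by more than 1.5 times in 93 of 336 left-out fits and in 51 of 227 other fits, and for DN2a against DN1 it was 4549 with all samples and 6566 without DN2a replicate 2. Members under 1 TPM, Gata3 and Bcl11b in most pro-B samples, rested on few reads.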
